A study of Mus musculus with 14 samples.

Results

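The homologous recombination and Fanconi repair genes described here are 37 genes chosen by their symbols in the deposited expression table, which holds 24016 transcripts, 1 for each symbol. All 37 were found, and all 37 were among the 14312 transcripts called expressed below, those whose FPKM averaged 1 or more across libraries. RNA was measured in C2C12 cells, a mouse myoblast line that leaves the cell cycle and fuses into myotubes when serum is lowered. The cells were transfected with a control siRNA (siCtrl) or with a pool of siRNAs against Klf5 (siKlf5), a zinc finger transcription factor. They were collected on day 0 and after 1, 2 or 3 days in differentiation medium with horse serum, and no other treatment or genetic change is given. There was 1 library for each siRNA and day, 8 in all, so no condition has a replicate of its own, and the line stands for 1 clonal model of muscle.

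Homologous recombination repairs a broken chromosome by copying from the sister chromatid, and it is therefore tied to S and G2 phase. Nucleases trim the broken ends, Brca1 and Brca2 with their partners prepare the single strand for pairing with the sister, and helicases and nucleases then take the joined molecules apart. The Fanconi anemia proteins recognize crosslinks between the strands, mark the Fancd2 and Fanci pair with ubiquitin and hand the lesion to the recombination proteins. Muscle cells stop replicating their DNA when they form myotubes, and many repair genes of this kind are known to be transcribed together with the replication genes.

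Reads counted in the listed transcripts ranged from 7850497 (siCtrl, day 1) to 20301506 (siCtrl, day 2). Values are FPKM as deposited, reads per exon length and per library total, so genes of different length can be compared. They are scaled to a library total of 10000000, so they lie above FPKM on the usual scale. Klf5 itself was at 223.8, 381.1, 614.4 and 933.1 FPKM in siCtrl cells on days 0 to 3 and at 35.1, 159.6, 192.1 and 211.4 in siKlf5 cells. Of 18 muscle genes, 15 rose from day 0 to day 3, beside 12.8% of all transcripts. In siCtrl cells Myog went from 479.3 to 2293 FPKM and Myh3 from 103.1 to 2790. Among the myoblast genes, Des rose by 0.63 on the log2 scale (adjusted p = 0.0198 in limma). Myod1, Myf5 and Cdh15 did not pass the test. Of 12 markers of other cell types, 5 were expressed, Plin1 and Epcam were listed at 0 in all 8 libraries, and Sox9 lay between 145.2 and 286.1 FPKM.

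The repair genes were moderately expressed on day 0, and 24 of the 37 fell as the cells differentiated, beside 17.6% of all transcripts. On day 0 their median was 58.8 FPKM in siCtrl and 58.3 in siKlf5 cells, beside 73.2 and 74.6 for all expressed transcripts. On day 3 it was 25 and 21.3, beside 71.2 and 70.1. Msh6, Nbn and Mus81 were the most abundant in 1 library or another, and Brca2, Palb2 and Polq the least, with 7 reads of Palb2 in the siCtrl day 1 library as the lowest count. In RNA from whole cultures, fewer dividing cells and less RNA per cell cannot be told apart.

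**Figure D1:**
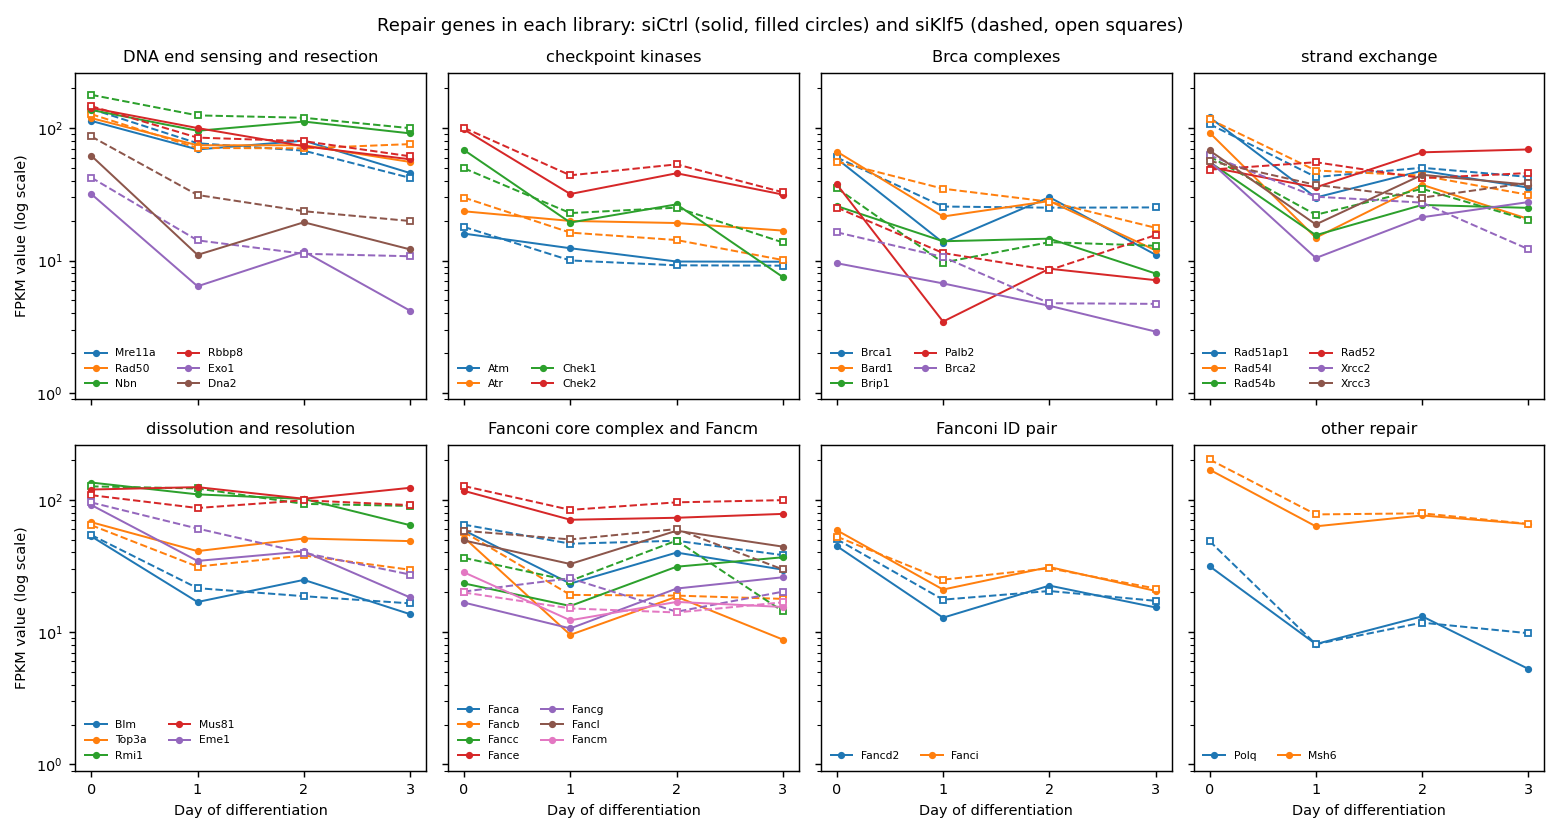
FPKM values (log scale) of the 37 genes by day of differentiation, 1 panel for each role, with siCtrl as solid lines with filled circles and siKlf5 as dashed lines with open squares. Each point is 1 library, and most lines drop between day 0 and day 1, Palb2 in siCtrl cells to 3.46.

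The promoters shown here are those of the 2 genes with the largest drop from day 0 to day 3, Chek1 and Exo1, and of the 2 with the largest positive difference, Fancg and Rad52. Each is the 250 bases before the transcript start in mm9, 5′ to 3′ on the strand of the gene. Capitals mark 2 kinds of motif on either strand, the E2F words (TTCCCGC and its variants with TTGGCGC, with TTCGCGC or with TTGCCGC) and the box CCAAT, which reads ATTGG on the other strand. Chek1 lies on the minus strand (chr9:36534244-36534493), Exo1 on the plus strand (chr1:177810659-177810908), Fancg on the minus strand (chr4:43023174-43023423) and Rad52 on the plus strand (chr6:119852466-119852715). Fancb on the plus strand (chrX:161418274-161418523) was added after the motifs had been counted, as a gene that fell and holds both.
Chek1: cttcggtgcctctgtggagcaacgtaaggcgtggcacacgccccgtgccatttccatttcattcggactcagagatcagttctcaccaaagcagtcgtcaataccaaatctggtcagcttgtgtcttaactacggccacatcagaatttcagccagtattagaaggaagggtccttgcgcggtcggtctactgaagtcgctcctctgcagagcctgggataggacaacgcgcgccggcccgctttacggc
Exo1: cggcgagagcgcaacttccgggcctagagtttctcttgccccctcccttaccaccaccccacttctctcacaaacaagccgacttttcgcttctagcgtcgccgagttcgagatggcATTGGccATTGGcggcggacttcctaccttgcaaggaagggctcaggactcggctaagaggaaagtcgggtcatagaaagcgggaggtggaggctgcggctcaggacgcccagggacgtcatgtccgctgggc
Fancg: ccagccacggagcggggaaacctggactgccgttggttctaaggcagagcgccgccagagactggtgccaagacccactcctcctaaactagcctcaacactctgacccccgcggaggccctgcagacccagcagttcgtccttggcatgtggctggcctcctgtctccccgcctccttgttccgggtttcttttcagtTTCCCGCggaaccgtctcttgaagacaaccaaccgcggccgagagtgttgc
Rad52: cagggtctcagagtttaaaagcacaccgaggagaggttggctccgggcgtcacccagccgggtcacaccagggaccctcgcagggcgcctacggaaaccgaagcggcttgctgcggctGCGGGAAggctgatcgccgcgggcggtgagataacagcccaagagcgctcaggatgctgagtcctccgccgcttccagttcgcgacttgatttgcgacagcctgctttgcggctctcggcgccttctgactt
Fancb: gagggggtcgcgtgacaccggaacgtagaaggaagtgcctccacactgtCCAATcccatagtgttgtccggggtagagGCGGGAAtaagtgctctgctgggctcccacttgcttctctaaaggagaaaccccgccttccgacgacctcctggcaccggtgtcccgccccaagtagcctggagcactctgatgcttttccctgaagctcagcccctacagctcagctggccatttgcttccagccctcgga

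The upstream sequences of the falling genes were not alike in these letters. Chek1 held neither motif, Exo1 held 2 CCAAT boxes, and Fancg and Rad52, which did not fall, held 1 E2F word each. Over all 37 genes, 11 (29.7%) held an E2F word, beside 13.7% of 13051 expressed protein-coding transcripts. The share was 7 of the 24 genes that fell and 4 of the other 13. A CCAAT box stood in 19 (51.4%) of the 37, beside 35.8%, and in 14 of the 24 and 5 of the 13. The cell cycle homology region, searched as TTTGAA or TTCGAA, stood in 4 (10.8%), beside 12.2%. Boxes of the kind bound by Klf factors, searched as GGGCGGGG and as GGGTGGGG, GGGCGTGG or GGGTGTGG, stood in 11 (29.7%), beside 43.5%. These words were chosen after the expression values were known, matches of different kinds were counted even where they overlapped, and a match is no measured binding. The kept transcript began where the GENCODE annotation of the build begins an exon of its gene for 23 of the 37. Fancg, whose upstream sequence is shown, was not among the 23.

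The first question was how these genes change as the cells differentiate. Averaged over both siRNAs, 24 of the 37 fell from day 0 to day 3 and none rose (limma on log2 values, adjusted p under 0.05). Their median log2 change was -1.49, beside -0.09 for all expressed transcripts, of which 17.6% were called lower and 12.8% higher. At an unadjusted p under 0.05, 29 of the 37 passed, beside 41.6% of all transcripts. With other scalings of the libraries the share of all calls that were lower went from 57.9% to 45.6% or 46.6%, and 22 of the 37 genes fell under either. The test uses the siRNAs as repeats of a day, so the spread behind it is how the siRNA difference varied from day to day. Leaving out 1 library of day 0 or day 3 leaves that day with 1 library. Fewer of the 37 then passed, and fewer of all transcripts did too. With any 1 of the 8 libraries left out, the median of the 37 lay between -1.49 and -1.34. Without any 1 of the other 4 libraries the count of genes that fell was between 20 and 24.

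**Figure D2:**
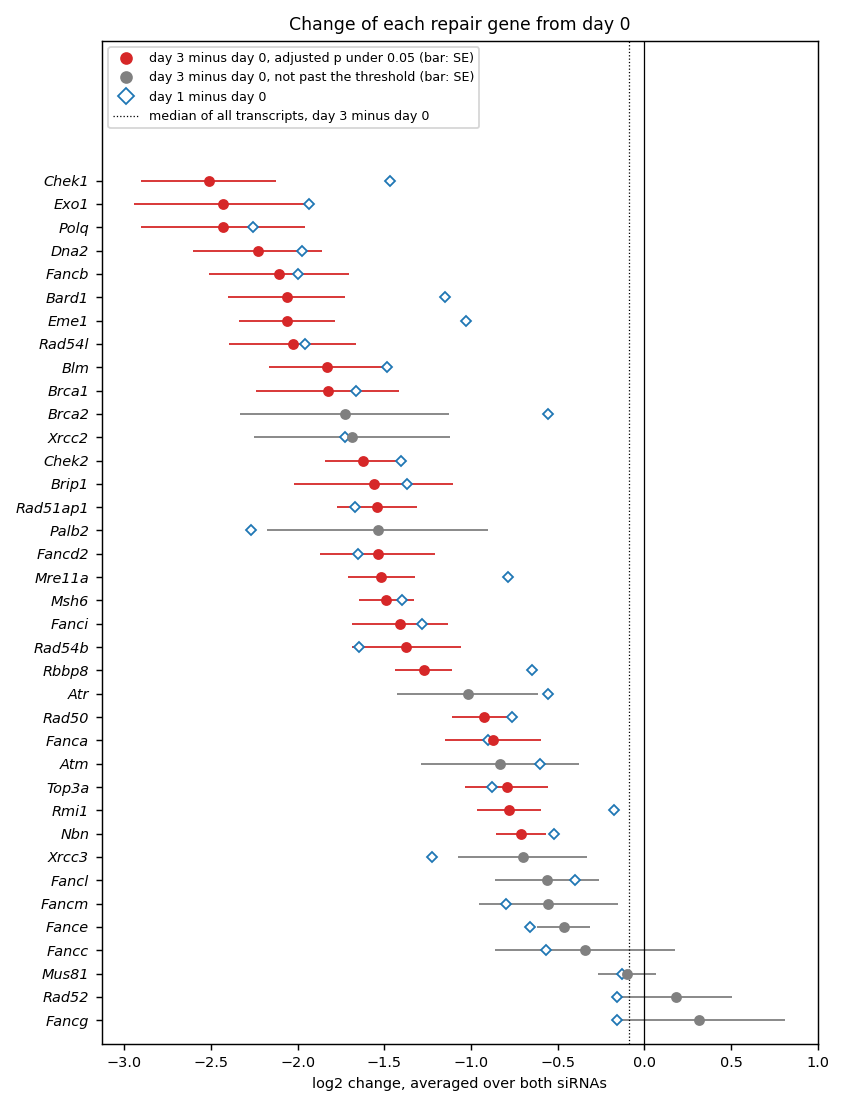
log2 change of each gene from day 0, averaged over both siRNAs, with day 3 as circles (red for adjusted p under 0.05, grey otherwise, bars 1 SE) and day 1 as open diamonds. Chek1 is at -2.51 and Fancg at 0.31, and the dotted line marks the median of all transcripts at -0.09.

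The genes that sense and resect DNA ends all fell by day 3, 6 of 6, beside 17.6% of all transcripts called lower. The same share stands beside the count of each role below. Exo1, a nuclease that resects long tracts, was at 31.9, 6.39, 11.7 and 4.18 FPKM in siCtrl cells on days 0 to 3 and at 42.4, 14.2, 11.3 and 10.8 in siKlf5 cells. Both series were highest on day 0, and every later library lay below both day 0 libraries. Its log2 change from day 0 to day 3 was -2.43 ± 0.51 (SE), with an adjusted p of 0.00898 in limma. Dna2, a helicase and nuclease with the same task, changed by -2.23 ± 0.37. The Mre11a, Rad50 and Nbn subunits, which form the complex that first binds a broken end, and Rbbp8, which starts resection with it, had higher FPKM levels and fell by 1.52, 0.93, 0.71 and 1.27 on the log2 scale. Nbn thus kept 61.1% of its day 0 value and Exo1 18.5%.

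Among the checkpoint kinases the 2 effectors fell and the 2 sensors did not pass the test. Chek1, which restrains the cell cycle when replication stalls, was at 68.4, 19.4, 26.6 and 7.50 FPKM in siCtrl cells and at 49.8, 22.8, 25.1 and 13.7 in siKlf5 cells. The day 3 libraries were the lowest of both series. Its change of -2.51 ± 0.39 (adjusted p = 0.00238 in limma) was the lowest of the 37. Chek2, the effector kinase downstream of Atm, changed by -1.62 ± 0.22 (adjusted p = 0.00124 in limma). Atm, which responds to broken ends, and Atr, which responds to single-stranded DNA, were at -0.83 ± 0.46 and -1.02 ± 0.41, with adjusted p of 0.210 and 0.0958 in limma. Exons of Atr share bases with a pseudogene and a noncoding RNA on the other strand, and reads were counted without regard to strand.

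Of the 5 genes of the Brca complexes, 3 fell, beside 17.6% of all transcripts. Brca1, which promotes resection and recruits Palb2, was at 58.9, 13.7, 30.1 and 11.1 FPKM in siCtrl cells and at 60.1, 25.6, 25.1 and 25.2 in siKlf5 cells. The siKlf5 series stayed level from day 1, whereas the siCtrl series was higher on day 2 than on days 1 and 3. Bard1, the partner of Brca1 in its ubiquitin ligase, fell by 2.06 on the log2 scale, and Brip1, a helicase bound to Brca1, by 1.56. Brca1 fell by 1.83. Brca2, which acts on the resected strand, and Palb2, which links Brca1 with Brca2, were at -1.73 ± 0.60 and -1.54 ± 0.64 and did not pass (adjusted p = 0.0641 and 0.106 in limma). Palb2 rests on few reads, 7 to 117 per library.

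Of the 6 strand exchange genes, 3 fell, beside 17.6% of all transcripts. Rad54l, a motor protein that remodels DNA during strand invasion, was at 92.6, 14.9, 37.4 and 20.6 FPKM in siCtrl cells and at 117.0, 47.9, 43.8 and 31.4 in siKlf5 cells. Its change was -2.03 ± 0.36. Rad54b, its relative, and Rad51ap1, which promotes strand pairing, changed by -1.37 ± 0.31 and -1.54 ± 0.23. Xrcc2 and Xrcc3, which act in strand exchange, were at -1.69 ± 0.56 and -0.70 ± 0.37, short of the threshold. Rad52, which anneals single strands, was at 50.8, 35.7, 65.7 and 69.1 FPKM in siCtrl cells and at 48.6, 55.3, 41.9 and 45.8 in siKlf5 cells. Its fitted difference of 0.18 ± 0.33 was -0.10 without the siCtrl day 3 library, so no direction can be given.

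Among the genes that take joined molecules apart, 4 of 5 fell, beside 17.6% of all transcripts. Blm, the helicase of the dissolution complex, changed by -1.83 ± 0.34, and its partners Top3a and Rmi1 by -0.80 ± 0.24 and -0.78 ± 0.18. Eme1, the regulatory subunit of a nuclease that cuts branched DNA, was at 91.3, 34.5, 40.7 and 18.3 FPKM in siCtrl cells and at 95.3, 60.5, 39.7 and 27.2 in siKlf5 cells, a change of -2.06 ± 0.28. Mus81, its catalytic partner, was at 119.4, 124.4, 101.6 and 123.0 in siCtrl cells and at 108.2, 86.6, 99.0 and 91.0 in siKlf5 cells. Its difference of -0.10 ± 0.17 had an adjusted p of 0.685 in limma and was 0.01 with median-ratio scaling. Exons of Eme1 share 215 bases with Lrrc59.

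Fanconi genes were counted by complex. Of the 7 core complex genes with Fancm, 2 fell, beside 17.6% of all transcripts, and the difference from that share was not tested. Fancb, a subunit of the catalytic module, fell by 2.11 and Fanca, a subunit of another module, fell by 0.87 on the log2 scale. Fance, which binds Fancd2, Fancl, the ubiquitin ligase, and Fancm, which anchors the complex to DNA, were at -0.46 ± 0.15, -0.56 ± 0.30 and -0.55 ± 0.40 and did not pass. Fancg was at 16.7, 10.7, 21.3 and 26.0 FPKM in siCtrl cells and at 20.2, 25.5, 14.3 and 20.2 in siKlf5 cells, a difference of 0.31 ± 0.50. Without the siCtrl day 3 library it was -0.02. Fancc was at -0.34 ± 0.52, and without the siKlf5 day 3 library at 0.65. Both targets of the complex fell, Fancd2 with a change of -1.54 ± 0.33 and Fanci with -1.41 ± 0.28. The exons of Fanca share 652 bases with Zfp276, those of Fancl 462 with Vrk2, those of Fanci 855 with Polg and those of Fancc 185 with 2010111I01Rik, so reads of these 4 may be mixed.

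Both genes of neighbouring pathways fell. Polq, the polymerase of microhomology-mediated end joining, was at 31.5, 8.12, 13.2 and 5.27 FPKM in siCtrl cells and at 48.7, 8.10, 11.8 and 9.80 in siKlf5 cells, a change of -2.43 ± 0.47. Msh6, a mismatch sensor, was at 168.7, 62.9, 76.1 and 65.4 in siCtrl cells and at 201.4, 77.4, 78.9 and 65.7 in siKlf5 cells. All 6 later libraries of Msh6 lay below 80, and its adjusted p of 0.000407 in limma was the smallest of the 37.

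Levels were already lower after 1 day, and the test of that step was less firm. From day 0 to day 1 the fitted difference was negative for all 37 genes, with a median of -1.15, beside -0.09 for all transcripts. Of the 37, 22 fell (limma), beside 9.93% of all transcripts called lower and 6.82% called higher. This count was 14 with median-ratio scaling, 13 with upper-quartile scaling, 7 without an intensity trend, 4 without a filter on low values, and between 0 and 6 with any 1 library left out, so it depended on every library. In the siCtrl libraries 21 genes were at least 2-fold lower on day 1 and in the siKlf5 libraries 18, beside 12.5% and 10.3% of expressed transcripts, and none was 2-fold higher, beside 9.38% and 11.9%. On day 3 the count was 24 in either series, beside 12.7% in siCtrl and 12.4% in siKlf5 cells, again with none higher, beside 15.5% and 14.9%. On day 3 all 37 genes lay below day 0 in siKlf5 cells and 33 did in siCtrl cells. The median log2 change of all expressed transcripts over these days was -0.08 in siKlf5 and -0.07 in siCtrl cells. Their share below day 0 was not counted. The siRNA series share no library with each other, but the days of 1 series share its day 0 library.

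Between day 1 and day 2 the siCtrl and siKlf5 libraries took different courses, which could not be tested. In siCtrl cells 31 of the 37 genes were higher on day 2 than on day 1, 17 of them past 1.5-fold and none lower by as much, beside 24.9% of all transcripts higher and 10.1% lower. In siKlf5 cells 15 of 37 were higher, 2 past 1.5-fold (Rad54b and Fancc), and 3 were lower by as much (Brca2, Eme1 and Fancg), beside 15.2% and 10.2%. The median log2 change of all expressed transcripts was 0.17 in siCtrl and 0.025 in siKlf5 cells. Rad54l went from 14.9 to 37.4 FPKM in siCtrl and from 47.9 to 43.8 in siKlf5 cells. Of the siCtrl series 17 genes had their lowest value on day 1, and of the siKlf5 series 5. The same shares over all transcripts were not counted. The siCtrl day 1 library is the shallowest of the 8, and its part in this difference was not tested. Averaged over the siRNAs, limma called none of the 37 between days 1 and 2, beside 1.39% of all transcripts, and 0 had an unadjusted p under 0.05, beside 19.1%. It called none between days 2 and 3, beside 0.0279%, and 6 (16.2%) had an unadjusted p under 0.05, beside 6.84%.

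The other question was whether Klf5 knockdown moved these genes. Averaged over the 4 days, no repair gene was called in limma, beside 0.00699% of all transcripts called higher and 0.0559% called lower. At an unadjusted p under 0.05 there were 6 of 37 (16.2%), beside 9.6% of all transcripts. The 6 were Dna2 (0.74 ± 0.26), Rad54l (0.71 ± 0.26), Fance (0.28 ± 0.11) and Nbn (0.25 ± 0.10), higher in siKlf5 cells, and Mus81 (-0.28 ± 0.12) and Top3a (-0.40 ± 0.17), lower. Their smallest adjusted p was 0.441. The median of the 37 was 0.15, beside 0.01 for all transcripts tested, and 31 of the 37 were on the positive side. So were 34 of 47 further recombination and Fanconi genes, 22 of 22 cell division genes and 6 of 11 end joining genes. The share over all transcripts was not counted, and all these genes were read in the same libraries. A p that misses the threshold does not show that the siRNAs gave equal values. No difference of the slopes over days was called in limma for the 37, beside 0.0% of all transcripts, and 0 had an unadjusted p under 0.05, beside 2.21%.

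Compared within each day, 26, 29, 15 and 26 of the 37 genes were higher in the siKlf5 library on days 0 to 3. The median log2 ratio of all expressed transcripts on these days was 0.0009, 0.03, -0.03 and 0.0. Their share on the higher side was not counted. On day 1, 16 of the 37 were higher in siKlf5 cells by more than 1.5-fold and none was lower by as much, beside 16.4% and 11.0% of all expressed transcripts. The median log2 ratio of the 37 was 0.47, beside 0.03. On day 3, 10 were higher and 5 lower, beside 10.7% and 12.5%, with a median of 0.16. On day 0, 3 were higher and none lower, beside 9.22% and 11.1%, with a median of 0.14. On day 2, Fancc was higher and Rad52 lower, beside 7.69% and 13.0%. These are ratios of 1 library to another, with no test.

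**Figure D3:**
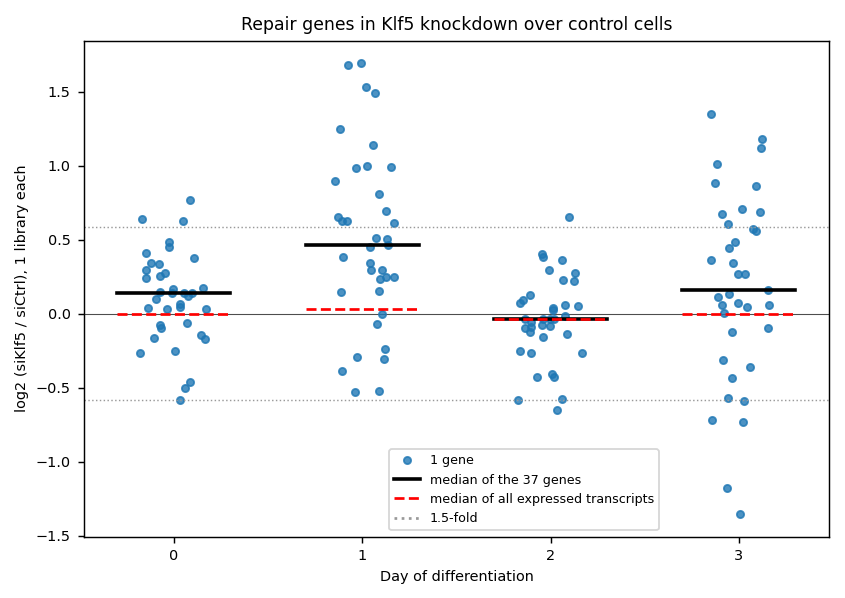
log2 ratio of siKlf5 over siCtrl for each of the 37 genes (points) by day, 1 library against another, with the median of the genes (black line), the median of all expressed transcripts (red dashes) and the 1.5-fold limits (dotted). On day 1 the median of the genes was 0.47 and on day 2 it was -0.04.

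Counting error alone was wide for these genes. Over the 4 days, 17 of 148 ratios had a 95% exact interval that left out 0, 14 above and 3 below, beside 13.3% of all 57248 intervals, a count near the background. The intervals take 6 reads as 1 event, because transcripts with exactly 6 reads far outnumbered those with exactly 5. With single reads 80 (54.1%) did, beside 50.5% of all. With 6 reads as 1 event, the intervals of day 1 that left out 0 included that of Rad54l, at 1.68 (95% interval 0.55 to 2.97). Those of Xrcc2, at 1.53 (0.27 to 2.995), and Dna2, at 1.49 (0.41 to 2.73), did so too. Palb2 had the highest ratio of that day, 1.69, but its interval was -1.48 to 6.71.

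The day 1 ratios rest on the siCtrl library of that day. Another comparator, chosen after seeing the data, was the mean of the siCtrl values of days 0 and 2. Against it the siKlf5 day 1 library was lower for 33 of the 37 genes, beside 61.0% of all transcripts. The median of the 37 was -0.44. Past 1.5-fold, 16 were lower and 1 higher, beside 18.1% and 8.1% of all transcripts. The siCtrl day 1 library stood at -0.96 against the same mean, with 25 genes lower past 1.5-fold, beside 23.9%. This comparator mixes days of differentiation, so it does not measure the knockdown alone. In the ratios within each day, the cell division genes had medians of 0.11, 0.35, 0.12 and 0.32 on days 0 to 3. Those of the repair genes were 0.14, 0.47, -0.04 and 0.16. Of the 22 cell division genes, 6 were past 1.5-fold on day 1 and 3 on day 3, all higher. The shares of all transcripts higher by as much were 16.4% and 10.7%. The part of the cell division genes in the result was not tested.

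By role, the Brca complexes had medians of 0.03, 0.69, -0.03 and 0.69 on days 0 to 3. On days 1 and 3, 4 of 5 genes were higher in siKlf5 cells past 1.5-fold, beside 16.4% and 10.7% of all expressed transcripts. Brip1 was at -0.53 on day 1. Of the 5, only Brca1 had an interval that left out 0 on day 1 or on day 3. Brca1 was at 1.18 (95% interval 0.47 to 1.94) on day 3, when its siKlf5 value was 25.2 and its siCtrl value 11.1 FPKM. The strand exchange genes were at a median of 0.81 on day 1 but -0.13 on day 3. The checkpoint kinases had medians of -0.03 and -0.02, with Chek1 higher and Atr lower past 1.5-fold on day 3. The core complex genes had a median of 0.63 on day 1, with 5 of 7 higher past 1.5-fold, beside 16.4% of all expressed transcripts. Their median on day 3 was 0.12.

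Other genes of the pathway and of other repair routes give the setting for the drop. Over all transcripts, 17.6% were called lower and 12.8% higher from day 0 to day 3, the shares to set beside each count here. Of 47 further recombination and Fanconi genes, 25 fell from day 0 to day 3 and none rose, with a median of -0.89 and values between -3.03 (Rmi2, adjusted p = 0.114 in limma) and 0.25 (Recql5). Of 22 cell division and S phase genes all 22 fell, with a median of -1.71, from -2.24 for Plk1 to -0.98 for Pcna. Mki67 went from 196.8 to 38.5 FPKM and Top2a from 720.9 to 210.0 in siCtrl cells. Non-homologous end joining, which also works outside S phase, had a median of -0.28, with values between -0.94 (Rif1) and 0.38 (Trp53bp1). Of its 11 genes 2 fell, near the share of all transcripts. Mismatch repair had 2 of 6 that fell, between -1.13 (Pms2) and 0.05 (Mlh3). Of 25 base and nucleotide excision genes 9 fell and 1 rose, between -1.96 (Ung) and 0.62 (Neil1). Of 19 E2F, Rb and Dream factors 10 fell, Mybl2 by 2.57 and E2f1 by 1.04, and Rb1 rose by 1.61. Of 14 p53 targets 6 rose and 2 fell, between -1.95 (Sesn2) and 3.31 (Fas, adjusted p = 0.115 in limma). Differences between these lists were not tested.

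**Figure D4:**
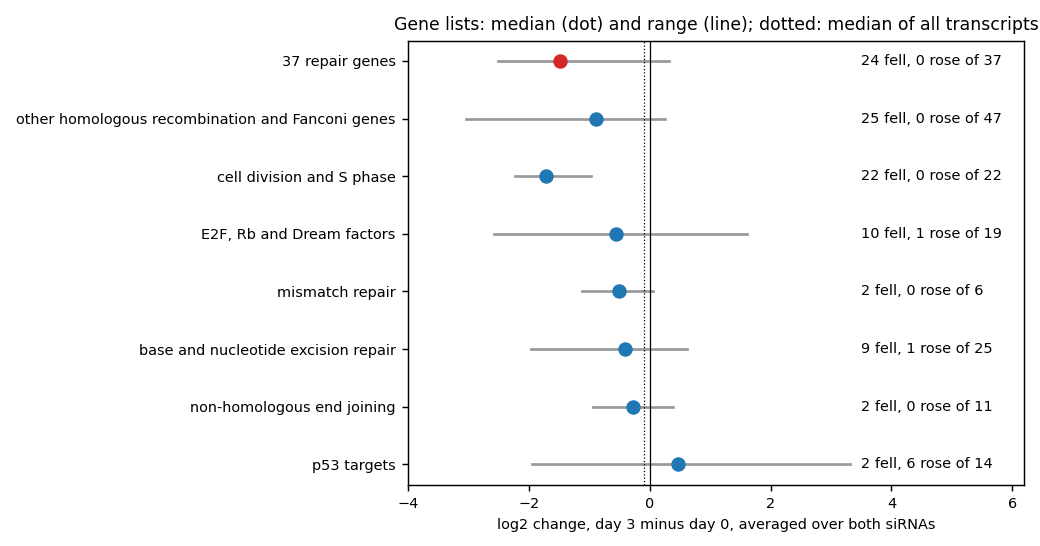
Median (dot) and range (line) of the log2 change from day 0 to day 3, averaged over both siRNAs, for the 37 repair genes (red) and 7 other gene lists (blue), with the number that fell and rose at an adjusted p under 0.05 at the right. The repair genes have a median of -1.49, the cell division genes -1.71 and the end joining genes -0.28. Of all transcripts, 17.6% fell and 12.8% rose.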

How the data were processed

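Poly(A) RNA of C2C12 cells was sequenced in 8 libraries, 1 for each siRNA and day. The authors aligned reads to mm9 with STAR and used HOMER to sum them over RefSeq exons of both strands, keeping up to 3 reads at a position and 1 transcript per symbol, and deposited FPKM values based on a library total of 10000000. The 8 log2 columns beside them were not used. ChIP-seq samples were not analysed here. Reads were recovered from the steps of the values, all within 0.1 of a whole number.

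log2(FPKM + 0.1) of 14312 transcripts (mean of at least 1 of 24016) was fitted in limma 3.58.1 (R 4.3.3) with an intensity trend and Benjamini-Hochberg adjustment over all transcripts. Terms were day and siRNA (3 residual degrees of freedom), or siRNA, numeric day and their product (4). Folds understate changes of low values. Ratios of single libraries carry Clopper-Pearson 95% intervals for counting error only and have no test. The fits were tested on simulated data. Python 3.11.15 ran the remaining steps, with tables in pandas 2.3.3, arrays in numpy 2.4.6, intervals in scipy 1.17.1 and figures in matplotlib 3.10.9. Every member was named by its role. Of other lists, Klf5, Mki67, Top2a, E2f1, Myog, Myh3 and the extremes of the day 3 change were named. The members and lists were chosen with earlier results of these data known. Alternatives were other pseudocounts, filters, scalings, cutoffs, variance priors and libraries left out. p-values measure the spread between these libraries, which may be technical. Some items are not reported here.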

Additional observations from a re-analysis of the deposited data

Results flagged for a closer look

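3 repair genes (8.11% of the 37) stood on opposite sides of the siCtrl libraries by more than 1.5-fold on different days. This is a smaller share than the 14.9% of all expressed transcripts. Rad52 had a log2 ratio of siKlf5 over siCtrl of 0.63 on day 1 and -0.65 on day 2, and both 95% intervals for counting error include 0 (-0.44 to 1.76 and -1.41 to 0.07). Xrcc2 had 1.53 on day 1 (0.27 to 2.995) and -1.18 on day 3 (-2.30 to -0.17). Fancc had 0.65 on day 2 (0.05 to 1.26) and -1.35 on day 3 (-2.41 to -0.40). The intervals of Xrcc2 and Fancc leave out 0 but cover counting error only. Each ratio is 1 library against another, and the difference between the days was not tested for any of them.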

How the results depend on the processing

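Each siRNA and day has 1 library, so no value has a replicate error. The fit of the siRNA effect is paired, with day as the block, and was not run without it. Of 358 comparisons of a count or median with its value under another setting, leaving out libraries aside, 331 stayed close. Close meant within 1.5 times for counts. For medians it meant within the median SE of the genes or, for ratios of 2 libraries, their median interval arm of day 0. Counts of 0 that stayed 0 are among the 331, so this total does not measure how firm the other results are.

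With no filter on low values, 14 repair genes fell from day 0 to day 3 and 4 by day 1, and of all transcripts 1256 fell, 905 rose by day 3 and 0 were called for the siRNA in either direction. Without the intensity trend, 7 repair genes fell by day 1, 1366 of all transcripts fell by day 3, and 0 were called for the siRNA. Median-ratio scaling gave 14 genes lower on day 1 than on day 0, and 1 and 2 lower in siKlf5 cells on days 0 and 1. Upper-quartile scaling gave 13 on day 1. A 2-fold cutoff left 0 genes higher in siKlf5 cells on day 0, 6 on day 1, 0 higher and 0 lower on day 2, and 4 higher and 2 lower on day 3. A 1.5-fold cutoff put 26 genes below day 0 on day 2 and 2 above it on day 3 in siCtrl cells, and 28 below it on day 1 in siKlf5 cells. The shares of all transcripts at these changed cutoffs were not counted, so these counts have no background beside them. Single reads gave 80 intervals without 0. Against siCtrl days 0 and 2, chosen after seeing the data, 1 gene was higher and 16 lower past 1.5-fold on day 1, and the median turned to -0.44.

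Leaving out each library in turn gave 6 to 24 repair genes that fell by day 3 and 0 to 6 by day 1. Of all transcripts 752 to 2423 fell and 668 to 1811 rose by day 3, 0 were called for the siRNA in either direction, and the median slope difference of the repair genes ran from -0.37 to 0.21. The siRNA effect, past the threshold for none, changed sign for Mre11a (-0.072 to 0.11), Rad50 (-0.015 to 0.16), Rbbp8 (-0.040 to 0.082, and -0.0036 with median-ratio scaling), Chek1 (-0.10 to 0.34), Brip1 (-0.057 to 0.35), Xrcc2 (-0.22 to 0.68), Xrcc3 (-0.26 to 0.26), Blm (-0.035 to 0.22), Rmi1 (-0.024 to 0.18), Fancc (-0.028 to 0.64), Fancg (-0.22 to 0.39), Fancl (-0.10 to 0.30), Fancm (-0.22 to 0.050) and Fanci (-0.044 to 0.092). The day 3 change did so for Rad52 (-0.10 to 0.46), Fancc (-1.34 to 0.65) and Fancg (-0.022 to 0.65), and the day 1 change for Rad52 (-0.69 to 0.37), Mus81 (-0.29 to 0.028) and Fancg (-0.89 to 0.58). Mus81 was at 0.010 (median-ratio) and 0.0045 (upper-quartile scaling) on day 3 and at 0.011 on day 1 with upper-quartile scaling. None of these was called in the full fit. The cause was not tested. Depth limits Palb2 most, with 7 to 117 reads.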
